A study of Mus musculus with 6 samples.

Results

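The genes described here are 38 named genes of the cell cycle and of DNA replication, measured in whole colon of young mice that lack the hedgehog ligand gene Ihh in the intestinal epithelium and of their control littermates. Each gene was taken from the array row that carried its symbol and no other, and where several rows did so, from the row with the highest mean. This gave 36 of the 38 genes, out of 19938 genes with such a row. Ccnb1 had no such row and the row for Cdkn1a also carried a second symbol, so neither was analysed here.

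The 3 mutant mice were VilCre;Ihhflox/flox, in which a Cre recombinase driven by the villin promoter, active in the gut epithelium, removes the floxed Ihh alleles. The 3 control mice are labelled wild type, without a statement of which floxed or Cre alleles they carried. Mutant 1 and control 1 were littermates, and so were those numbered 2 and 3, which gave 3 litters and 1 array per mouse. The series gives postnatal day 12 for the harvest, whereas the growth protocol gives day 9 to day 12, and the day of each litter is not given in the sources used here. Levels are log2 values from RMA, so that 1 unit is a doubling, and each change is the mutant minus the control level.

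The cell cycle is driven by cyclins, which bind and activate cyclin-dependent kinases (CDKs). D-type cyclins with Cdk4 or Cdk6 carry cells through G1, E-type cyclins start DNA synthesis, and A- and B-type cyclins with Cdk1 take cells into mitosis. In the epithelium of the colon, dividing cells lie in the lower part of the crypts. Whole colon also holds muscle, vessel and immune cells, whose division was not measured apart. The messages of mitotic genes accumulate only in cells that are about to divide. Their level in whole tissue therefore reflects both the number of such cells and the RNA in each. A lower share of such cells and less RNA per cell cannot be told apart in these samples.

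No gene of the 36 passed the test for a difference between mutant and control colon. Under limma with the litter as a block, 0 rose, 0 fell and 36 did not pass, and the smallest adjusted p was 0.137. Across all genes tested, 751 passed, which is 3.77% (330 higher in mutants, 1.66%, and 421 lower, 2.11%). The median change of the 36 genes was 0.002, and that of all genes was 0.01. At an unadjusted p under 0.05 the count was 5 of 36 (13.9%), against 15.1% of all genes. The 5 were Ccne2, Ccnd3, Ccnd2, Cdkn2c and Ccnd1.

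Standard errors of the 36 changes lay between 0.08 and 0.16. For 34 of them the 95% interval of the change lay within a 1.5-fold difference in either direction, as it did for 92.7% of all genes. The exceptions were Cdc20, with an interval from -0.61 to 0.08, and Cdkn2c, with one from -0.82 to -0.09. The changes of 22 genes were under 0.1 in size.

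**Figure D1:**
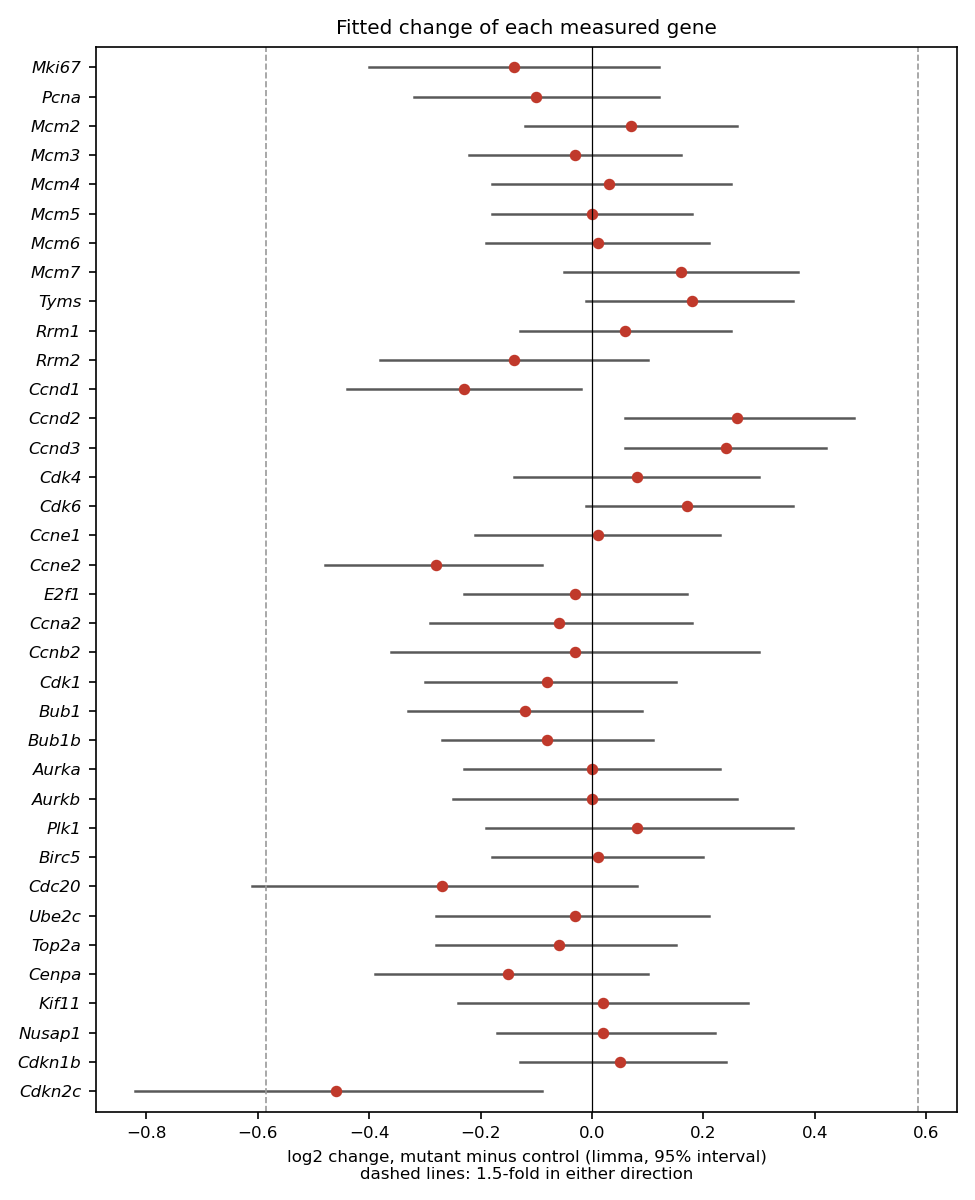
Change of each of the 36 genes, mutant minus control, on the log2 scale (x axis), with points for the limma estimate and bars for its 95% interval; dashed lines mark a 1.5-fold difference. All bars except those of Cdc20 and Cdkn2c stay between the dashed lines.

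The targeted gene Ihh was at 8.37, 8.22 and 8.22 in mutants 1 to 3, against 8.50, 8.54 and 8.68 in controls 1 to 3 (change -0.30, limma adjusted p = 0.139), lower in all mutants than in all controls. The sources used here do not say whether its probes lie in the deleted part. Ptch1, the hedgehog receptor and a target of the pathway, was at 9.06, 8.94 and 9.01 in mutants 1 to 3, against 10.32, 10.46 and 10.54 in controls 1 to 3 (limma adjusted p = 0.000493). Array medians over all rows lay between 7.10 and 7.14, and correlations between arrays between 0.9855 and 0.9936. All 10 colonocyte markers examined had a row, with mean log2 levels from 10.10 to 10.21 in mutants and from 10.16 to 10.33 in controls, but 1 rose and 2 fell. Slc9a3, a sodium-proton exchanger, rose by 1.30, the carbonic anhydrase Car4 changed by -1.40 and the water channel Aqp8 by -1.29 (limma adjusted p = 0.00131, 0.00768 and 0.0107). Markers of several cell types also differed. Of 7 smooth muscle markers 5 fell and 0 rose (mean log2 level 11.44 to 11.91 in mutants and 12.12 to 12.25 in controls), of 5 neutrophil markers 4 rose and 0 fell (6.13 to 6.59 in mutants and 5.29 to 5.44 in controls), and of 5 blood endothelium markers 4 fell and 0 rose (8.31 to 8.49 in mutants and 8.72 to 9.06 in controls). Of 9 markers of crypt stem and transit cells 3 rose and 1 fell (8.24 to 8.35 in mutants and 8.04 to 8.18 in controls). The part of these shifts in the values of the cell cycle genes was not tested.

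Mki67, the nuclear antigen Ki-67 that is present in dividing cells and lost in resting ones, had 9.78, 9.93 and 9.47 in mutants 1 to 3, against 9.82, 9.86 and 9.91 in controls 1 to 3. Mutant 3 was the lowest array and mutant 2 the highest, so the groups overlapped. The change was -0.14 ± 0.11 (SE; limma adjusted p = 0.664), with a 95% interval from -0.40 to 0.12.

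Genes of the replication machinery were close to level. The Mcm2 to Mcm7 proteins form the ring-shaped helicase that opens DNA at origins, and Pcna is the sliding clamp that holds polymerases on the template. Of these 7 genes 0 rose and 0 fell, with changes from -0.10 (Pcna) to 0.16 (Mcm7) and a median of 0.01. Mcm7 had 9.20, 9.07 and 9.11 in mutants 1 to 3, against 8.85, 9.03 and 9.02 in controls 1 to 3. The mutants lay above the controls, although the step between mutant 2 and control 2 was 0.04 (change 0.16 ± 0.09, limma adjusted p = 0.499). Mcm5 was the steadiest gene of the helicase, with 8.74, 8.75 and 8.75 in mutants 1 to 3, against 8.74, 8.78 and 8.71 in controls 1 to 3. Mcm2, Mcm3, Mcm4 and Mcm6 had changes of 0.07, -0.03, 0.03 and 0.01.

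Pcna had 10.76, 10.72 and 10.82 in mutants 1 to 3, against 11.06, 10.77 and 10.77 in controls 1 to 3. Control 1 stood above the other arrays, and the change of -0.10 ± 0.09 did not pass (limma adjusted p = 0.729). A second row for Pcna differed from the first by at most 0.010 on any array. RefSeq lists processed copies of this gene, Pcna-ps1 and Pcna-ps2, and the rows do not tell which copy was hybridised.

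Deoxynucleotide synthesis genes were likewise not called. Tyms, thymidylate synthase, had 8.49, 8.53 and 8.51 in mutants 1 to 3, against 8.27, 8.39 and 8.35 in controls 1 to 3. All mutants lay above all controls, and the change was 0.18 ± 0.08 (limma adjusted p = 0.361). The subunits of ribonucleotide reductase differed in spread. Rrm1 ranged from 10.10 to 10.13 in mutants and from 10.01 to 10.12 in controls. Rrm2, the subunit whose amount limits the enzyme in S phase, had 8.21, 8.72 and 8.79 in mutants 1 to 3, against 8.62, 8.78 and 8.74 in controls 1 to 3. Mutant 1 alone was low there, and the change was -0.14 ± 0.10 (limma adjusted p = 0.637).

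The D-type cyclin genes did not lie on the same side of their controls. Ccnd1, cyclin D1, had 9.76, 9.85 and 10.06 in mutants 1 to 3, against 10.00, 10.21 and 10.14 in controls 1 to 3. Every mutant lay below its own littermate, but mutant 3 lay above control 1. The change was -0.23 ± 0.09 (limma adjusted p = 0.269). Ccnd2, cyclin D2, had 11.76, 11.70 and 11.80 in mutants 1 to 3, against 11.39, 11.60 and 11.48 in controls 1 to 3. Here all mutants lay above all controls, by 0.26 ± 0.09 (limma adjusted p = 0.193).

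Ccnd3, cyclin D3, had 8.76, 8.84 and 8.81 in mutants 1 to 3, against 8.52, 8.61 and 8.56 in controls 1 to 3. The groups did not overlap, and the differences in litters 1, 2 and 3 were 0.24, 0.24 and 0.25 (change 0.24 ± 0.08, limma adjusted p = 0.174). Cdk6, a kinase partner of these cyclins, had 9.77, 10.01 and 9.88 in mutants 1 to 3, against 9.67, 9.76 and 9.71 in controls 1 to 3, without overlap (change 0.17 ± 0.08, limma adjusted p = 0.380). Cdk4, the other kinase partner, overlapped, at 11.68 to 11.75 in mutants and 11.51 to 11.79 in controls.

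Among the genes that act at the entry into S phase, Ccne2, cyclin E2, had the smallest p of the 36. It was at 6.88, 7.12 and 7.0 in mutants 1 to 3, against 7.28, 7.33 and 7.22 in controls 1 to 3. All mutants lay below all controls, by 1.22-fold (change -0.28 ± 0.08, limma adjusted p = 0.137). Ccne1, cyclin E1, which binds the same kinase, Cdk2, stood at 0.01 ± 0.09, and E2f1, a transcription factor that activates replication genes, at -0.03 ± 0.09. Over the 36 genes, mutants and controls did not overlap in 7 (19.4%), 6 with mutants above and 1 with mutants below, and in 19.8% of all genes. The share among cell cycle genes was near that of all genes. The 7 were Mcm2, Mcm7, Tyms, Ccnd2, Ccnd3, Cdk6 and Ccne2.

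**Figure D2:**
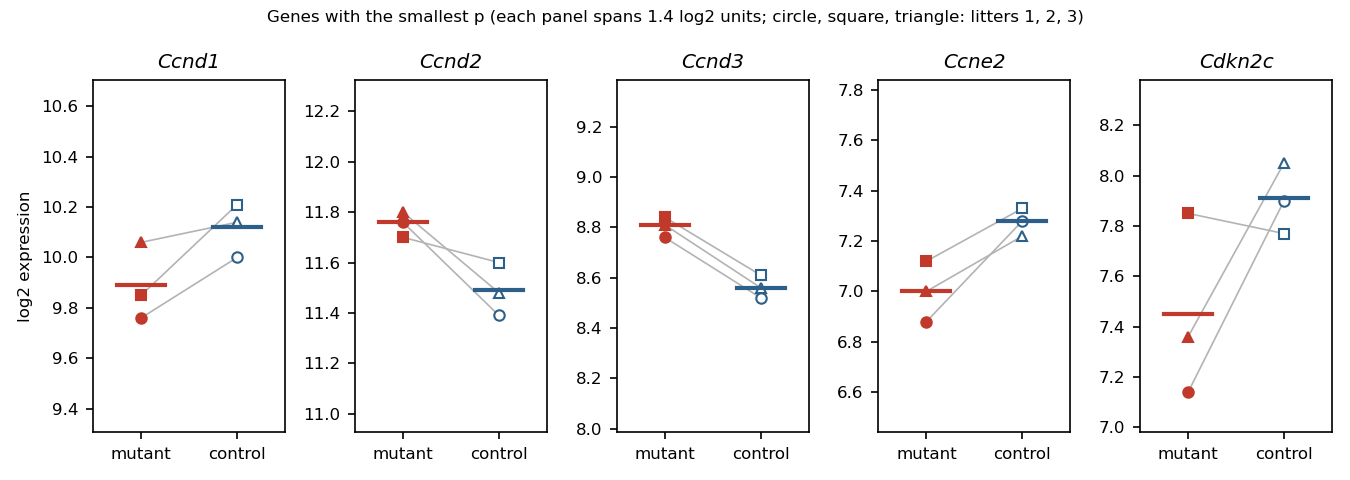
Log2 expression (y axis) of the 5 genes with an unadjusted p under 0.05 on the 3 mutant and 3 control arrays; grey lines join littermates, horizontal bars are group means, and each panel spans 1.4 log2 units. Ccnd2 and Ccnd3 lie higher and Ccne2 lower in all mutants than in all controls, whereas Ccnd1 and Cdkn2c overlap.

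Inhibitors of CDKs hold cells in G1. Cdkn2c, p18, which blocks Cdk4 and Cdk6, had 7.14, 7.85 and 7.36 in mutants 1 to 3, against 7.90, 7.77 and 8.05 in controls 1 to 3. It had the lowest change of the 36 genes, -0.46 ± 0.16, and the widest standard error (limma adjusted p = 0.200). Mutant 2 lay above its littermate, while mutants 1 and 3 lay 0.76 and 0.69 below theirs, and the call depended on which litters entered. The change was -0.304 without litter 1 (limma adjusted p = 0.447), -0.722 without litter 2 (limma adjusted p = 0.00154) and -0.341 without litter 3 (limma adjusted p = 0.524). Cdkn1b, p27, which binds cyclin and CDK pairs, was at 9.07 to 9.14 in mutants and 8.96 to 9.15 in controls, with a change of 0.05 ± 0.08. A second row for it stood at -0.01.

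In mitotic genes the litters differed in direction. This group holds the A- and B-type cyclins with Cdk1, the mitotic kinases and checkpoint proteins, the partners of the anaphase-promoting complex, and proteins of chromosomes and spindle. Of its 15 measured genes 0 rose and 0 fell, with changes from -0.27 to 0.08 and a median of -0.03. In litter 1, 12 of the 15 were lower in the mutant (median -0.11), in litter 2, 13 were higher (median 0.13), and in litter 3, 14 were lower (median -0.18). Of all genes, 48.8%, 49.9% and 48.4% were lower in the mutant of litters 1, 2 and 3. The run of lower, higher and lower in litters 1, 2 and 3 was shown by 10 of the 15 genes and by 9.51% of all genes. The opposite run was shown by 0 of the 15 and by 10.6% of all genes. The first run has the signs of the medians of these same 15 genes, so its count among them cannot test it. The groups of these genes overlapped in every case. These genes share the same 6 RNA samples, so they are not independent replicates of the pattern, and it was not tested. Each litter held 1 mutant and 1 control, so litter cannot be told apart from single mouse or array here.

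Ccnb2, cyclin B2, gives the clearest example, with 8.75, 9.41 and 8.73 in mutants 1 to 3, against 9.0, 8.98 and 9.0 in controls 1 to 3. The controls were nearly equal (SD 0.014), while mutant 2 lay above them and mutants 1 and 3 below (SD 0.39). Ccna2, cyclin A2, had 9.12, 9.49 and 9.07 in mutants 1 to 3, against 9.34, 9.31 and 9.21 in controls 1 to 3, in the same arrangement. Cdk1, their kinase, had 8.74, 8.85 and 8.52 in mutants 1 to 3, against 8.85, 8.72 and 8.77 in controls 1 to 3. Its change of -0.08 ± 0.10 had limma adjusted p = 0.818, and mutant 3 was the lowest array.

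Plk1, a kinase that acts in spindle assembly and cytokinesis, had 8.39, 9.10 and 8.61 in mutants 1 to 3, against 8.50, 8.67 and 8.68 in controls 1 to 3. Aurkb, the kinase of the chromosomal passenger complex, had 8.16, 8.92 and 8.57 in mutants 1 to 3, against 8.40, 8.63 and 8.61 in controls 1 to 3. In both genes mutant 2 was the highest array and mutant 1 the lowest. Aurka, the kinase of spindle poles, was at 7.85 to 8.26 in mutants and at 7.99 to 8.04 in controls, again with mutant 2 on top. The spindle checkpoint kinase gene Bub1 had 7.84, 8.12 and 7.80 in mutants 1 to 3, against 7.89, 8.14 and 8.10 in controls 1 to 3. It was the one mitotic gene lower in the mutant of all 3 litters, by 0.05, 0.02 and 0.30 (change -0.12 ± 0.09, limma adjusted p = 0.626). Bub1b, its partner in the checkpoint, and Birc5, survivin, stood at -0.08 ± 0.08 and 0.01 ± 0.08.

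Cdc20, which activates the anaphase-promoting complex, had 7.56, 8.06 and 7.64 in mutants 1 to 3, against 8.29, 7.92 and 7.86 in controls 1 to 3. Control 1 was the highest array and mutant 1 the lowest, so litter 1 gave a difference of -0.72 and litter 2 one of 0.15 (change -0.27 ± 0.15, limma adjusted p = 0.488). Ube2c, the ubiquitin-conjugating enzyme of the same complex, had 7.40, 8.10 and 7.78 in mutants 1 to 3, against 7.68, 7.88 and 7.82 in controls 1 to 3.

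Top2a, topoisomerase II alpha, which untangles sister chromatids, had 9.88, 10.15 and 9.88 in mutants 1 to 3, against 9.84, 10.11 and 10.14 in controls 1 to 3. In litters 1 and 2 the littermates differed by 0.04 each, and mutant 3 was 0.26 below its littermate (change -0.06 ± 0.09, limma adjusted p = 0.856). Cenpa, the histone variant of centromeres, had 8.67, 9.11 and 8.74 in mutants 1 to 3, against 9.04, 9.0 and 8.92 in controls 1 to 3, with a change of -0.15 ± 0.11 (limma adjusted p = 0.630). The spindle genes Kif11, a motor that pushes spindle poles apart, and Nusap1, a microtubule-binding protein, each stood at 0.02. Kif11 went with Top2a and Nusap1 and against the kinases in litter 1, where control 1 was its lowest array (8.49 in mutant 1 and 8.20 in control 1).

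**Figure D3:**
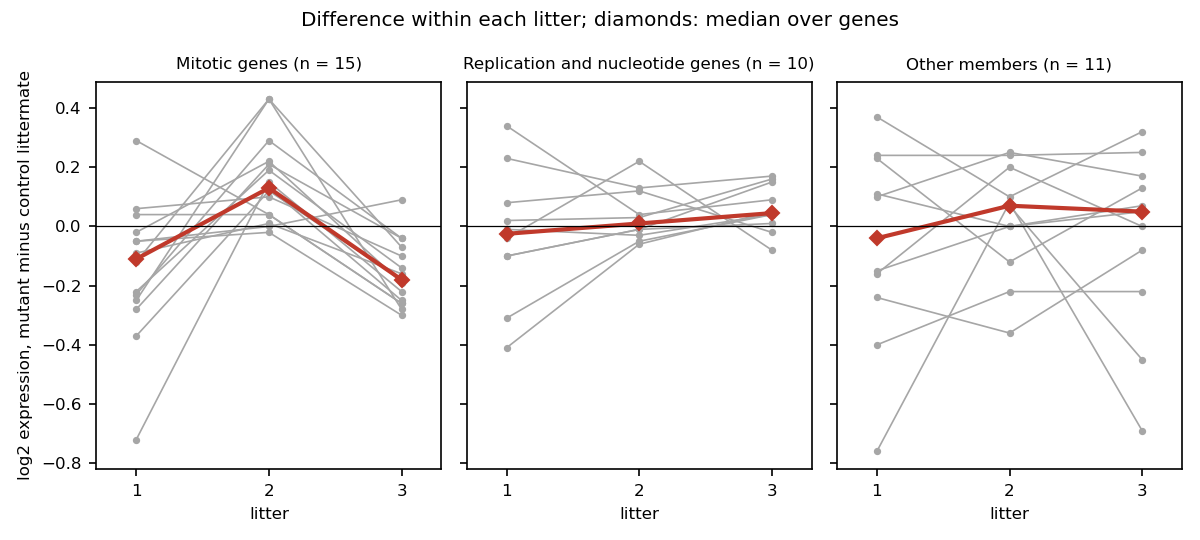
Difference between the mutant and its control littermate on the log2 scale (y axis) in litters 1, 2 and 3 (x axis); each grey line joins the values of 1 gene and red diamonds are medians over genes. The median of the 15 mitotic genes lay at -0.11, 0.13 and -0.18, that of the 10 replication and nucleotide genes at -0.02, 0.01 and 0.05.

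Replication genes had other values. Of the 10 genes of the clamp, helicase and nucleotide synthesis, 1 had the run of lower, higher and lower, and 8 were higher in the mutant of litter 3. Mean log2 levels of the 15 mitotic genes were 8.32, 8.70 and 8.34 in mutants 1 to 3, against 8.46, 8.54 and 8.50 in controls 1 to 3. Those of the 10 replication genes were 9.08, 9.18 and 9.21 in mutants 1 to 3, against 9.11, 9.14 and 9.14 in controls 1 to 3. Mutant 2 was the highest of the 6 arrays in 18 of the 36 genes, 11 of them mitotic, and in 15.6% of all genes.

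The mutants were also more spread out than the controls in mitotic genes. The SD of the 3 mutants was above that of the 3 controls in 12 of the 15 mitotic genes and in 5 of the 10 replication and nucleotide genes, against 51.8% of all genes. The median SD of the mitotic genes was 0.212 in mutants and 0.0981 in controls, and that of all genes was 0.104 in mutants and 0.0987 in controls. The SD of mutants was also above that of controls in 7 of 7 smooth muscle markers (median SD 0.323 in mutants and 0.0477 in controls). The same held for 6 of 6 goblet cell markers and 8 of 9 markers of crypt stem and transit cells. It held for 2 of 5 blood endothelium, 0 of 4 B cell and 0 of 3 T cell markers. With 3 arrays per group an SD is imprecise, and the difference in spread was not tested.

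**Figure D4:**
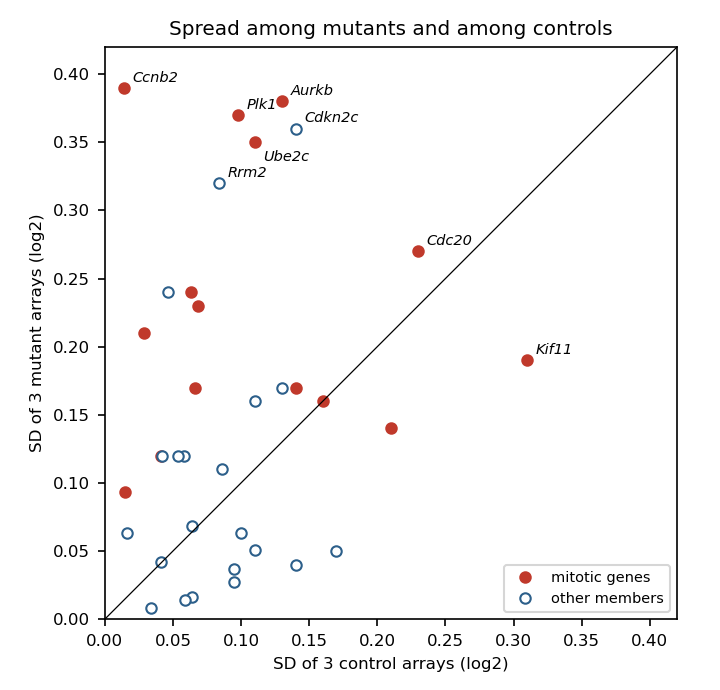
SD of the 3 mutant arrays (y axis) against the SD of the 3 control arrays (x axis), both in log2 units, for the 36 genes; the line marks equal SD. Ccnb2, Plk1, Aurkb and Ube2c lie far above the line, with mutant SDs of 0.39, 0.37, 0.38 and 0.35, and Kif11 lies below it.

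Marker levels of other cells also differed from litter to litter. Small intestinal enterocyte markers (5 of 5 measured, 1 rose) had medians of 0.93, -0.15 and 0.73 in litters 1, 2 and 3. Their mean log2 levels ranged from 8.10 to 8.85 in mutants and from 7.91 to 8.34 in controls. These medians had signs opposite to those of the mitotic medians, but the 5 markers were split, with changes from -0.59 to 1.19. Lower in the mutant were 2 of the 5 in litter 1, 3 in litter 2 and 2 in litter 3. Colonocyte markers also had opposite signs, with medians of 0.08, -0.07 and 0.15. Enteric neuron and glia markers had the same signs as the mitotic medians, at -0.28, 0.02 and -0.03. B cell markers (4 of 5 measured, 0 rose and 0 fell) had medians of 0.22, -0.19 and -0.79, with mean log2 levels of 5.96, 5.72 and 6.12 in mutants 1 to 3, against 5.65, 5.94 and 6.90 in controls 1 to 3. Control 3 held the highest B cell marker level. The part of these cells in the pattern of the mitotic genes was not tested.

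**Figure D5:**
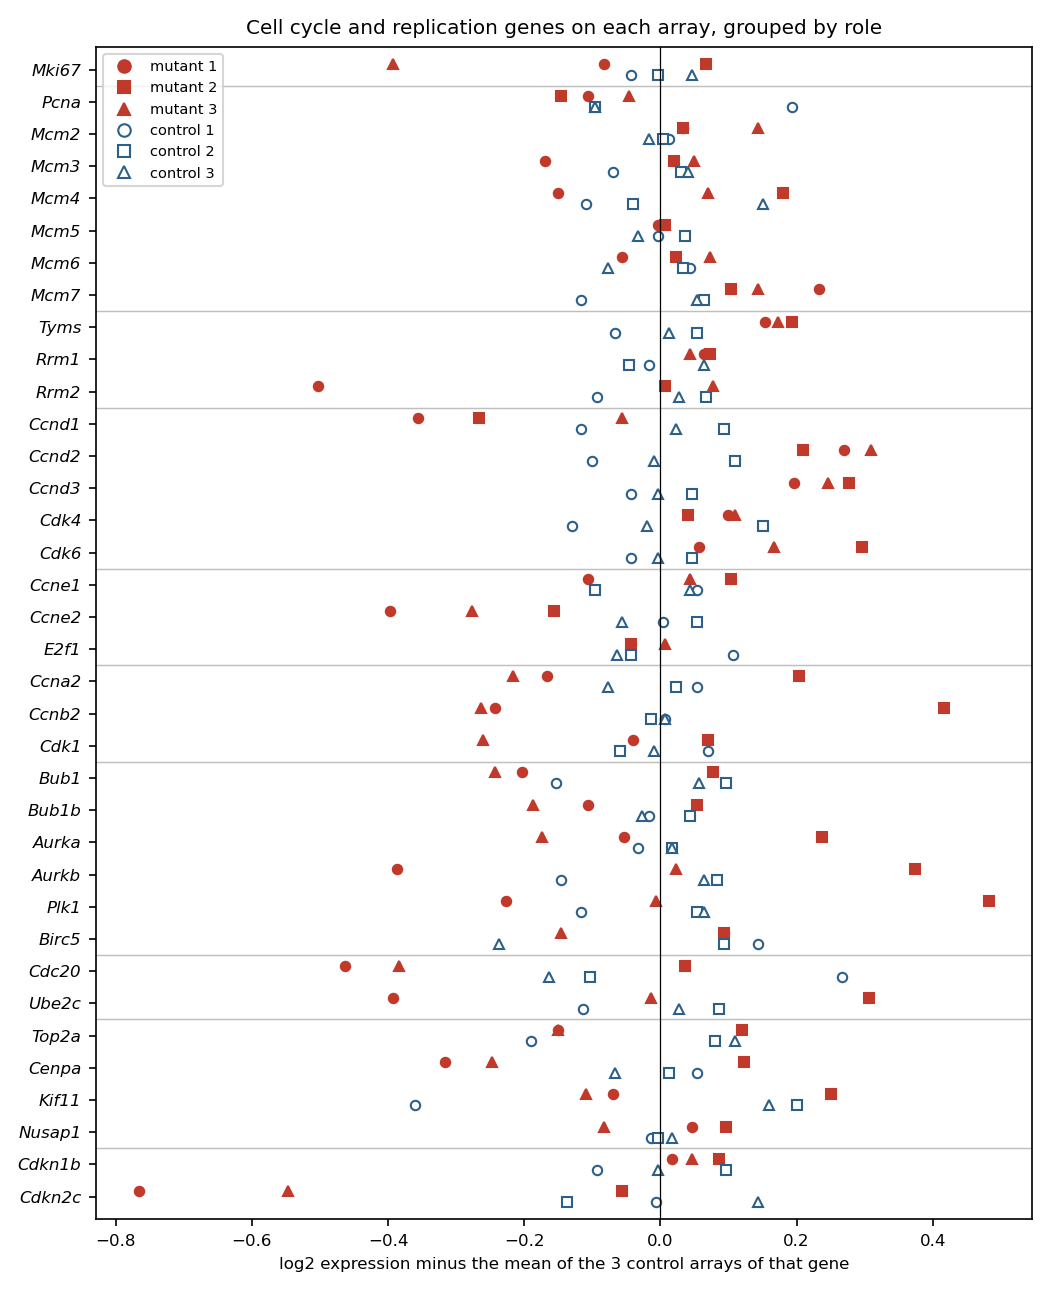
Log2 expression of the 36 genes on each array, minus the mean of the 3 controls of that gene (x axis), with mutants as filled red and controls as open blue symbols and circles, squares and triangles for litters 1, 2 and 3; lines part the role groups. Mutant 2 (red squares) lies to the right in most mitotic genes, and mutants 1 and 3 to the left, while the helicase genes cluster near 0.

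A wider set of 163 other genes of the cell cycle was examined, of which 159 were measured. In it 2 rose, 2 fell and 155 did not pass, which is 2.52% called against 3.77% of all genes, and the median change was 0.01. Mitotic genes of this wider set also differed by litter, though most did not have the run of lower, higher and lower. Of 43 kinetochore, spindle, condensin and cytokinesis genes, 42 were lower in the mutant of litter 3 (median -0.21), against 48.4% of all genes in that litter. In litter 2, 33 of the 43 were higher (median 0.12). In litter 1, 29 were higher (median 0.06), where 12 of the 15 mitotic genes above were lower. The run was shown by 10 of the 43 (23.3%), against 10 of the 15 above, whose medians have its signs, and 9.51% of all genes. None of the 43 was called, and 1 had an unadjusted p under 0.05, Anln, the cytokinesis scaffold anillin. Anln had 8.69, 8.91 and 8.48 in mutants 1 to 3, against 8.93, 8.93 and 8.91 in controls 1 to 3 (change -0.23 ± 0.10, limma adjusted p = 0.322). Among kinetochore genes Nuf2, a subunit that attaches microtubules, had the smallest p, at -0.19 ± 0.09 (limma adjusted p = 0.427).

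Among regulators of the G1 to S step and of mitotic genes, 1 of 24 rose and 1 fell, and they belong to the same family. Myc, a transcription factor that drives growth and cell cycle entry, had 9.06, 9.62 and 9.44 in mutants 1 to 3, against 8.74, 8.97 and 8.98 in controls 1 to 3. All mutants lay above all controls, by 1.39-fold (change 0.48 ± 0.09, limma adjusted p = 0.0327). The adjusted p was 0.119 with no litter block, 0.115 without litter 2 and 0.0883 without litter 3. Mycn, its paralog, had 7.91, 7.76 and 7.64 in mutants 1 to 3, against 8.32, 8.55 and 8.56 in controls 1 to 3. Mycn lay lower in each mutant than in any control, by 1.63-fold (change -0.71 ± 0.11, limma adjusted p = 0.0150).

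Of 17 measured CDK inhibitors and genes of the p53 pathway outside the 36, 1 fell and 0 rose. Cdkn2b, p15, an inhibitor of Cdk4 and Cdk6 from the same family as Cdkn2c, had 8.59, 8.39 and 8.22 in mutants 1 to 3, against 9.36, 9.40 and 9.24 in controls 1 to 3. The groups were apart in every litter, and the level was 1.91-fold lower in mutants (change -0.93 ± 0.09, limma adjusted p = 0.00253). Of 9 nucleotide supply genes 1 rose, Shmt1, the serine hydroxymethyltransferase that feeds one-carbon units to thymidylate synthesis. It had 9.06, 8.78 and 8.90 in mutants 1 to 3, against 8.40, 8.50 and 8.32 in controls 1 to 3 (change 0.51 ± 0.10, limma adjusted p = 0.0308). Without litter 1 its adjusted p was 0.0825, and without litter 3 it was 0.105.

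The remaining lists had 0 calls. Among 19 origin licensing and initiation genes the median was 0.05, and Orc1, the largest subunit of the origin recognition complex, had the smallest p (0.21 ± 0.09, limma adjusted p = 0.293). Among 24 replication fork genes the median was 0.02, and Rnaseh2a, which removes RNA from DNA, had the smallest p (0.32 ± 0.09, limma adjusted p = 0.103). Among 12 genes of entry into and exit from mitosis it was Fbxo5, an inhibitor of the anaphase-promoting complex (-0.17 ± 0.09, limma adjusted p = 0.424). Among 11 checkpoint and repair genes it was Rad51ap1, a recombination factor (-0.21 ± 0.10, limma adjusted p = 0.384).

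Many mitotic genes are known to carry a promoter element, the cell cycle genes homology region (CHR). It is bound by the complex that represses these genes in resting cells and, in changed form, activates them before mitosis, and it often stands with CCAAT boxes, which bind NF-Y. E2F sites are typical of replication genes. RefSeq promoter windows on GRCm38.p6, from 250 bases before to 50 after a start, were held for 32 of the 38 genes (36 windows). They were searched on both strands for the CHR letters TTTGAA, for the letters CCAAT, and for an E2F motif given by any of the letters TTTCCCGC, the letters TTTGGCGC, the letters TTTCGCGC and the letters TTTGCCGC, with overlapping matches kept. TTTGAA was in 10 of 14 windows of mitotic genes (71.4%), against 17.9% of all 32851 windows and 2 of the 22 other windows of the 38 genes (9.09%). CCAAT was in 12 of the 14 (85.7%) and in 7 of 7 windows of clamp and helicase genes, against 37.4% of all windows, so it did not set the mitotic windows apart from these. An E2F match was in 1 of the 14 (7.14%) and in 4 of 7 windows of clamp and helicase genes (57.1%), against 2.26% of all windows. A match describes these letters and is not a measured site.

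The 150 bases before the start are shown for 4 genes that had the run of lower, higher and lower in litters 1, 2 and 3, and for Mcm6, a helicase gene without it, so that the elements can be compared. Sequences are from RefSeq, 5′ to 3′ on the strand of the gene, with matches to the motifs above, on either strand, in capitals.
Ube2c, chr2:164769779-164769928, plus strand: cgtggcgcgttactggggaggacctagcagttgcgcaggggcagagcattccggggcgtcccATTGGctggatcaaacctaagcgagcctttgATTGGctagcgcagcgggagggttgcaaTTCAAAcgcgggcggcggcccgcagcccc
Cdc20, chr4:118437344-118437493, minus strand: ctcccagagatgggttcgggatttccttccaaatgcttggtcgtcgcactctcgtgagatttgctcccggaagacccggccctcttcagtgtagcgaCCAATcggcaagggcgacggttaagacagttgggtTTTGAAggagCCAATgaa
Cdk1, chr10:69352913-69353062, minus strand: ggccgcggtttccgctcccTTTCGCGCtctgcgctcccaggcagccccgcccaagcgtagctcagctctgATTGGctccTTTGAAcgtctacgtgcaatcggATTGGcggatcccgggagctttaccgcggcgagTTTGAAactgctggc
Mki67, chr7:135716380-135716529, minus strand: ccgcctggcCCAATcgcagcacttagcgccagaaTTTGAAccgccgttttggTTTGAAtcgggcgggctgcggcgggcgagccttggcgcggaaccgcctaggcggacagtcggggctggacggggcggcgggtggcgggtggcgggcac
Mcm6, chr1:128359706-128359855, minus strand: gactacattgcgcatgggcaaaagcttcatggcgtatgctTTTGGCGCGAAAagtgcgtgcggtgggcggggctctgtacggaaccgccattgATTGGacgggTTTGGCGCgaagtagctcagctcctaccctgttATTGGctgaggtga

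Ube2c and Cdc20 each carry a CHR match close to the start with CCAAT boxes nearby, and Cdk1 has 2 CHR matches along with an E2F match farther upstream. Mki67 carries 2 CHR matches farther from the start. Mcm6 has E2F matches and CCAAT boxes and no CHR match. Its difference was -0.10, -0.01 and 0.15 in litters 1, 2 and 3, against -0.28, 0.21 and -0.04 for Ube2c. Among genes not shown, Top2a, Kif11 and Mcm2 carry a CHR match but did not have the run. Differences in litters 1, 2 and 3 were 0.04, 0.04 and -0.26 for Top2a and 0.29, 0.04 and -0.26 for Kif11. Those of Mcm2 were 0.02, 0.03 and 0.16. Conversely, Cdkn2c had the run, with -0.76, 0.08 and -0.69, and a CCAAT match but no CHR match. A link between the element and the run was not tested.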

How the data were processed

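Colon RNA of 6 mice was hybridised to Affymetrix Mouse Gene 1.0 ST arrays. The deposited values are log2 expression made by the authors with RMA, per the submitters' processing notes; the sources used here give neither its version nor a genome build. Of 35557 rows, 21789 had 1 gene symbol in the platform annotation of 2016, and the row with the highest mean was kept for each of 19938 genes. No member was among the 30% of genes with the lowest mean. Array values carry no counts, and the number of arrays, 3 per group, limits precision.

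Mutant was compared with control in limma 3.58.1 (R 4.3.3; lmFit and eBayes, two-sided, Benjamini-Hochberg over 19938 genes, called where adjusted p was under 0.05). Litter entered as a block, since the design text pairs littermates. Over genes, littermates' deviations from the mean of their group had correlations of 0.0128, 0.00516 and 0.0613. Mutants and controls of different litters had correlations from -0.0925 to 0.065, so these values did not set littermates apart. Residual degrees of freedom were 2, plus 5.85 from the prior. The script was tested on simulated data.

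The members and lists were chosen with earlier results of these data known, so lists are described by counts and medians without a set test. Named were all members, with values per array for Mki67, Pcna, Top2a and the gene with the smallest p in each role group, and of each wider list the genes that passed or otherwise the one with the smallest p. Ccnd1, Ccnd2, Cdk6, Mcm5, Rrm2, Ccnb2, Ccna2, Plk1, Aurkb and Ube2c got values per array after these were seen. Marker lists for which no count of calls is given above were goblet cells (2 of 6 rose, 2 fell), enteroendocrine cells (2 of 5 rose), fibroblasts (1 of 6 fell), enteric neurons and glia (0 of 5), T cells (0 of 3), macrophages (0 of 4) and erythroid cells (1 of 3 rose).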

Additional observations from a re-analysis of the deposited data

How the results depend on the processing

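Compared with the reported fit were fits without the litter block or with litters as random effects, array weights, a robust eBayes with trend, quantile normalization or median centring of the arrays, averaging the rows of each gene, dropping the dimmest 30% of genes, and leaving out each litter, which left 1 residual degree of freedom. Without the litter block 0 members were called and 638 genes in all passed, and among 51 genes run under the alternatives (all measured members, the named genes of the wider lists, Ihh, Ptch1 and the 3 called colonocyte markers) the one call it changed was Myc, which it lost. Array weights moved Ihh past the threshold (-0.355, adjusted p = 0.0418). The alternatives for genes other than members, and for counts at an unadjusted p, were chosen after seeing the data. Array weights gave 1246 calls over all genes (512 higher and 734 lower), the largest departure, and 0 members. Leaving out a litter gave 546 to 798 calls over all genes (247 to 403 higher, 299 to 484 lower), 0 to 1 members (Cdkn2c, without litter 2), 2 to 5 members at an unadjusted p under 0.05, and a median change of the members between -0.089 (without litter 2) and 0.019. Median centring gave 359 higher and 347 lower calls over all genes. Myc also lost its call with the litter as a random block, with quantile normalization and without litter 2 or 3.

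The direction of 18 small changes, none over 0.14 in size, turned under some alternative, with adjusted p of at least 0.657. With array weights E2f1 was at 0.006, Ccnb2 at 0.004, Aurka at -0.004, Ube2c at 0.024 and Kif11 at -0.058. Quantile normalization gave Mcm5 -0.008, and the mean of all rows gave Top2a 0.016. Leaving out a litter gave Mcm3 -0.053 to 0.005, E2f1 -0.079 to 0.032, Ccna2 -0.181 to 0.024, Ccnb2 -0.262 to 0.094, Ube2c -0.158 to 0.089, Kif11 -0.109 to 0.166, Mcm4 -0.060 to 0.091, Ccne1 -0.082 to 0.10, Aurka -0.107 to 0.101, Aurkb -0.137 to 0.122, Plk1 -0.096 to 0.180, Nusap1 -0.016 to 0.083, Mki67 -0.246 to 0.012, Mcm5 -0.018 to 0.018, Mcm6 -0.057 to 0.069, Cdk1 -0.179 to 0.009, Birc5 -0.026 to 0.045 and Top2a -0.113 to 0.037. The cause of these shifts was not tested.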
